A study of Sus scrofa with 12 samples.

Results

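The AP-1 transcription factor genes FOS, FOSL1, FOSL2, JUN and ATF3 were followed in pig hind-leg muscle over the first day after slaughter. They were chosen by name, and every probe set (a group of short probes read together as 1 transcript) with 1 of these 5 symbols as its single annotation was taken. This gave 7 of the 23999 probe sets tested, 3 of them for FOSL1 and 1 each for FOS, FOSL2, JUN and ATF3. A further 4 probe sets carry the symbols FOSL2 and FRZB together and were left out.

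AP-1 is a dimer in which a Fos protein pairs with a Jun protein through a leucine zipper and binds DNA through the basic region beside it. FOS and JUN are immediate early genes, which cells switch on within minutes of growth factors, stretch or stress without first making new protein, and whose mRNAs are short-lived. ATF3 belongs to a related family and is induced by many kinds of cell stress, in part through ATF4. In skeletal muscle, contraction and injury are known to raise FOS and JUN mRNA.

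The samples were portions of the semimembranosus muscle of 3 female commercial hybrid pigs weighing around 160 kg, which came from 1 farm, were all stunned with 87% CO2 and were killed within 1 minute of each other. Each pig gave a portion 20 min, 2 h, 6 h and 24 h after death, from the same muscle, as the carcass was chilled to 4 °C. No animal was sampled alive, so each later portion is compared with the 20 min portion of the same pig, which serves all 3 such comparisons, and 6 h is also compared with 2 h and 24 h with 6 h. The 12 arrays, 1 per portion, give values on the log2 scale, on which 1 unit is a 2-fold difference.

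A whole muscle portion holds other cells beside fibres, and fewer cells of a type cannot be told apart from less RNA per cell. The fibre markers were bright in every portion: 11 of the 15 listed genes were measured, and their summed level lay between 17.68 and 17.71 on the log2 scale at 24 h, against 17.69 to 17.71 at 20 min. Array medians ran from 5.89 to 5.93, and 0 pairs of arrays were identical.

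FOS, the founding Fos gene, differed far more between the pigs than between the times. Its log2 level in pig 1 was 8.78 at 20 min, then 7.74 (2 h), 7.87 (6 h) and 7.72 (24 h). In pig 2 the same times gave 12.74, 12.46, 12.21 and 12.53. In pig 3 they gave 12.51, 12.13, 12.16 and 11.27. Pig 1 was thus low at all times and did not overlap with the others at any of them. Averaged over the 4 times, the FOS signal was 22.0-fold lower in pig 1 than in pig 2 and 15.9-fold lower than in pig 3, while pigs 2 and 3 differed by 1.39-fold.

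ATF3, the stress-induced relative, was also low in pig 1. Its log2 level there was 9.49 at 20 min, then 7.95 (2 h), 8.44 (6 h) and 6.90 (24 h). In pig 2 it was 11.83, 11.18, 10.40 and 11.12, and in pig 3 it was 11.92, 11.78, 11.76 and 10.14. Pig 1 was the lowest at every time, and pig 3 was above pig 2 until 6 h and below it at 24 h. The mean ATF3 signal was 7.68-fold lower in pig 1 than in pig 2 and 9.23-fold lower than in pig 3.

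JUN, which encodes the usual partner of FOS, varied less. Its log2 level over the 4 times, in order, was 11.32, 11.21, 11.34 and 11.04 in pig 1. In pig 2 it was 12.52, 12.38, 11.88 and 12.22, and in pig 3 it was 11.80, 11.73, 11.77 and 11.38. The order was pig 1, pig 3, pig 2 at every time, with means of 11.22, 11.67 and 12.25. FOSL2, a Fos relative without the strong activation domain of FOS, was at 6.33, 5.49, 5.77 and 5.54 in pig 1. It was at 6.78, 6.71, 6.41 and 6.58 in pig 2 and at 6.91, 6.96, 7.15 and 6.07 in pig 3. Here too pig 1 was the lowest at all 4 times.

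FOSL1, another such Fos relative, had 3 probe sets, and none of them had pig 1 below both other pigs at all 4 times. The brightest lay between 6.07 and 6.41 over the 12 arrays. The middle one lay between 4.62 and 5.27 and the dimmest between 3.88 and 4.85, and both are among the dimmest 40% of probe sets. In the dimmest, pig 3 was the highest at 20 min, 2 h and 6 h (4.53, 4.85 and 4.68), and at 24 h it stood at 4.06, between pig 1 at 4.01 and pig 2 at 4.15.

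**Figure D1:**
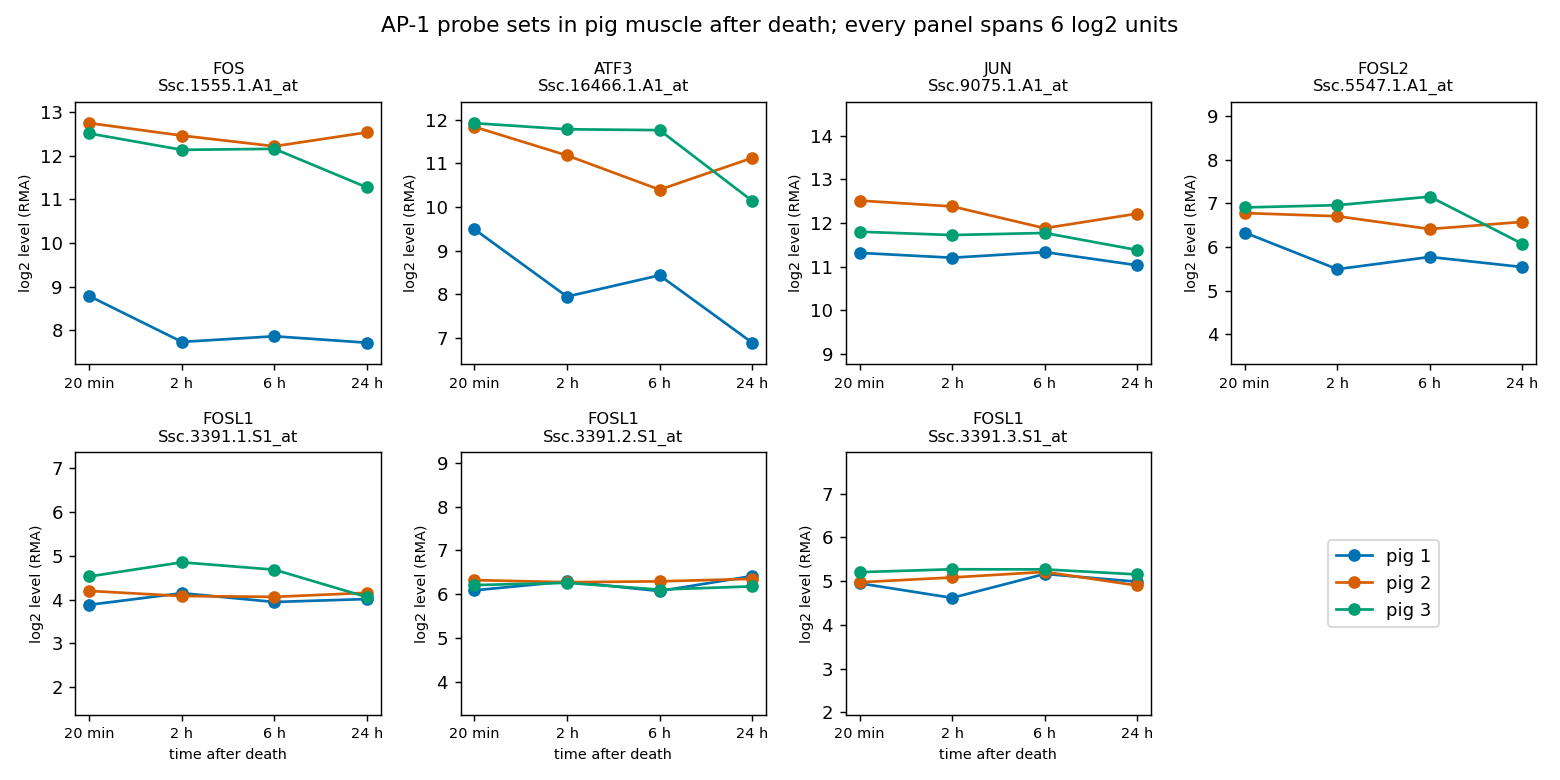
Log2 level of each AP-1 probe set (y axis, every panel spanning 6 log2 units) at 20 min, 2 h, 6 h and 24 h after death (x axis), with 1 point per array and a line per pig. Pig 1 lies between 7.72 and 8.78 for FOS and between 6.90 and 9.49 for ATF3, below pigs 2 and 3 at all 4 times, while the FOSL1 panels (from left to right the dimmest, brightest and middle set) vary by less than 1 log2 unit.

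Set against all 23999 probe sets, FOS had the lowest value of pig 1 minus pig 2 (-4.46 ± 0.39, SD over the 4 times) and also the lowest of pig 1 minus pig 3 (-3.99 ± 0.41). ATF3 ranked 6 from the lowest in pig 1 minus pig 2 (-2.94 ± 1.01) and 2 in pig 1 minus pig 3 (-3.21 ± 0.58). JUN ranked 98 (-1.02) and 773 (-0.45), and FOSL2 164 (-0.83) and 115 (-0.99). Pig 1 was the lowest pig at all 4 times in 4 of the 7 AP-1 probe sets, those of FOS, FOSL2, JUN and ATF3, against 6.22% of all probe sets; pig 2 was the lowest throughout in 0 of the 7 (7.00% of all) and pig 3 in 0 (5.95% of all). Pig 1 was also more than 2-fold below both other pigs in 2 of the 7, FOS and ATF3, against 0.254% of all. These comparisons between animals were chosen after the values had been seen and rest on 1 muscle of each pig, so they are a description without a test.

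**Figure D2:**
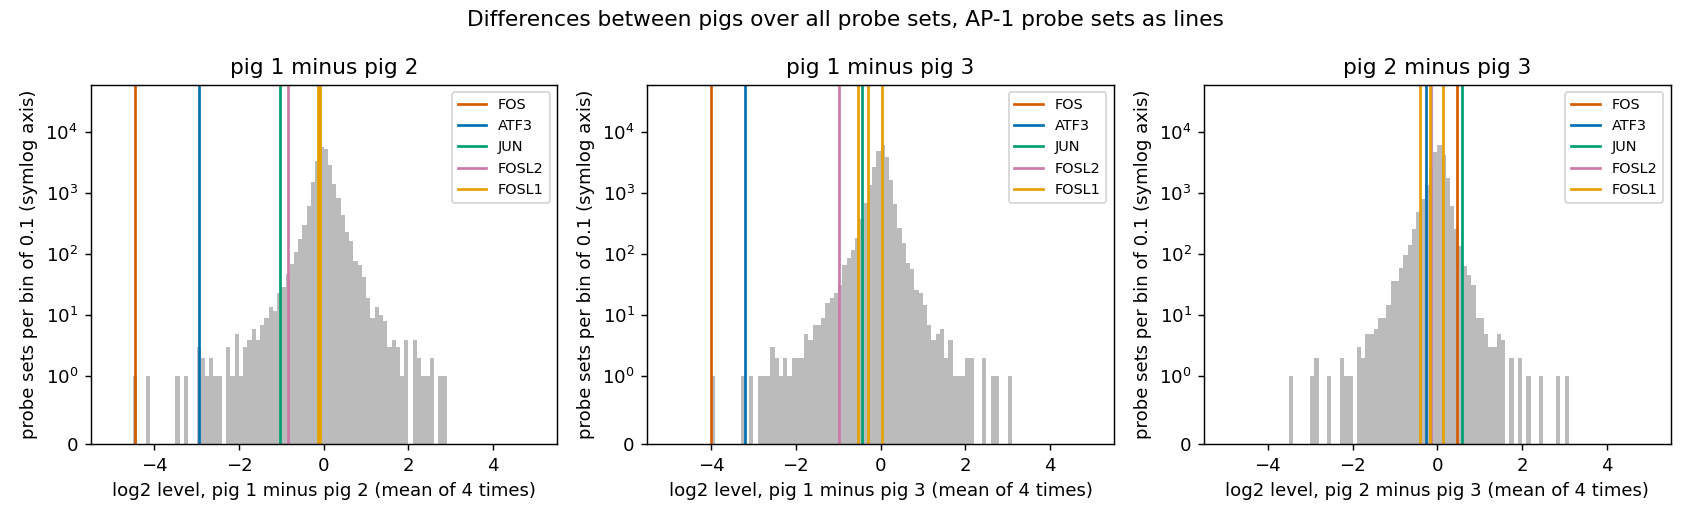
Histograms of the log2 level difference between pigs, averaged over the 4 times, for all 23999 probe sets (grey bars, bins of 0.1 log2 units, symlog count axis), with the AP-1 probe sets as coloured lines. The FOS line is at -4.46 for pig 1 minus pig 2 and at -3.99 for pig 1 minus pig 3, at the left end of both histograms, and at 0.47 for pig 2 minus pig 3.

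The spread between pigs was larger than the spread between times for 6 of the 7 probe sets, all but the brightest FOSL1 set, and for 62.1% of all. The SD of the 3 pig means of FOS was 2.45 and the SD of its 4 time means was 0.36, a ratio of 6.89. For ATF3 these SDs were 1.78 and 0.69, for JUN 0.51 and 0.14 and for FOSL2 0.53 and 0.25. The medians over all probe sets were 0.10 for pigs and 0.08 for times. By the SD of the pig means FOS ranked 1 and ATF3 4 of 23999, and by the SD of the time means ATF3 ranked 6 and FOS 53.

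Low values in pig 1 were also seen in other immediate early regulators, the early genes of other families. Of the 20 measured, 10 were lowest in pig 1 at all 4 times (6.22% of all probe sets were). Of the 20, 6 were also over 2-fold below both other pigs (0.254% of all): EGR1, KLF4, CYR61, BTG2, ID1 and ID3. The mean level of the 20 genes was 7.29, 8.16 and 7.86 in pigs 1, 2 and 3. EGR1, a zinc finger factor, averaged 5.69 in pig 1, against 8.51 in pig 2 and 8.09 in pig 3. DUSP1, a phosphatase that switches off MAP kinases, averaged 10.05, 12.29 and 11.58 in these pigs, and was the 1 of 6 MAP kinase feedback regulators lowest in pig 1 throughout. Also lowest there at all 4 times were 1 of 8 AP-1 dimer partners and relatives, 4 of 15 upstream kinases and factors, 3 of 23 known AP-1 targets and 3 of 13 mRNA decay factors. Of these, 0, 0, 0 and 2 (ZFP36 and BTG2) were over 2-fold below both other pigs. The fibre markers averaged 14.21 in each of the 3 pigs. Of the 7 smooth muscle and pericyte markers, 4 were lowest in pig 1 at all times (6.22% of all probe sets were). The median of the 7 was -0.37 for pig 1 minus pig 2 and -0.15 for pig 1 minus pig 3. These medians were -0.25 and -0.13 for the 11 endothelial markers, 0.19 and 0.16 for the 16 macrophage and leukocyte markers, and 0.42 and 0.03 for the 12 fibroblast and matrix markers. The part of these cells in the low values of pig 1 was not tested. The EF1A control probes compare the 3′ with the 5′ end of a transcript, and their difference grows as RNA breaks down. It averaged 0.61, 0.74 and 0.47 in pigs 1, 2 and 3, so pig 1 stood between the others.

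Within each pig, some AP-1 transcripts were lower at 24 h than at 20 min, but no change passed the test over all probe sets. The course between was not a steady fall. ATF3, FOS, FOSL2 and JUN were all higher at 24 h than at 6 h in pig 2, and at 6 h than at 2 h in pig 1. At 24 h ATF3, FOS, FOSL2 and JUN were each lower than at 20 min in all 3 pigs, while the 3 FOSL1 probe sets had differences of both signs. The 24 h and 20 min groups overlapped in all 7, but this sets the levels side by side without pairing by pig. For FOS and ATF3, pig 1 at 20 min was already below pigs 2 and 3 at 24 h. The overlap there says little about the change within a pig. Being lower in all 3 pigs was seen in 4 of 7 AP-1 probe sets and in 16.7% of all. A mean over 1.5-fold lower was seen in 3 of 7 (0.492% of all) and over 2-fold lower in 1, ATF3 (0.0792% of all). In limma's test with pig as a block, 0 of 7 passed an adjusted p of 0.05 (0.00417% of all probe sets did) and 4 of 7 had an unadjusted p under 0.05 (13.1% of all). That count of 4 became 2 on leaving out pig 1, and 2 also when only the 24 h portion of pig 3 was dropped. It was 0 without the replicate block or with pig as a random block. The median change was -0.33 over the 7 and 0.01 over all probe sets. The portions of a pig come from 1 muscle, and only 3 animals were sampled. With pig as a fixed block, the p-values rest on the spread left within pigs over all 4 times (6 residual degrees of freedom). This spread is drawn towards a value shared by all probe sets (5.67 prior degrees of freedom). The p-values thus do not measure the spread of a single change over the 3 animals alone.

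ATF3 had the third lowest change of all 23999 probe sets at 24 h. Its mean log2 level was 9.39 ± 2.21 at 24 h, against 11.08 ± 1.38 at 20 min (SD, n = 3 pigs). The log2 change was -1.69 ± 0.94 (SD; 95% interval -2.50 to -0.88), a 3.24-fold lower signal, with a limma adjusted p = 0.193. The single changes were -2.59, -0.71 and -1.78 in pigs 1, 2 and 3. Leaving out the 24 h array of pig 2 gave a change of -2.26 that passed (limma adjusted p = 0.0481). Leaving out that pig altogether gave -2.19 (adjusted p = 0.0750), and over all alternatives the adjusted p ran from 0.0481 to 0.833.

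FOS had a mean log2 level of 10.51 ± 2.50 at 24 h, against 11.35 ± 2.22 at 20 min (SD, n = 3 pigs). Its change was -0.84 ± 0.55 (SD; 95% interval -1.28 to -0.40; limma adjusted p = 0.193). Pig 1 had -1.07, pig 2 -0.21 and pig 3 -1.24, so that pig 2 had the smallest change, as it did for ATF3. FOSL2 had a change of -0.61 ± 0.35 (95% interval -1.05 to -0.16; limma adjusted p = 0.280), made up of -0.79, -0.20 and -0.83. JUN had the smallest mean change of the 4 genes but the most even one, -0.33 ± 0.07 (95% interval -0.62 to -0.05; limma adjusted p = 0.327), made up of -0.28, -0.30 and -0.42. For FOSL1 the changes were 0.11, -0.03 and -0.13 in the brightest, middle and dimmest set, and their 95% intervals lay between -0.44 and 0.30. The sign of each of these 3 turned when certain arrays or pigs were left out.

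**Figure D3:**
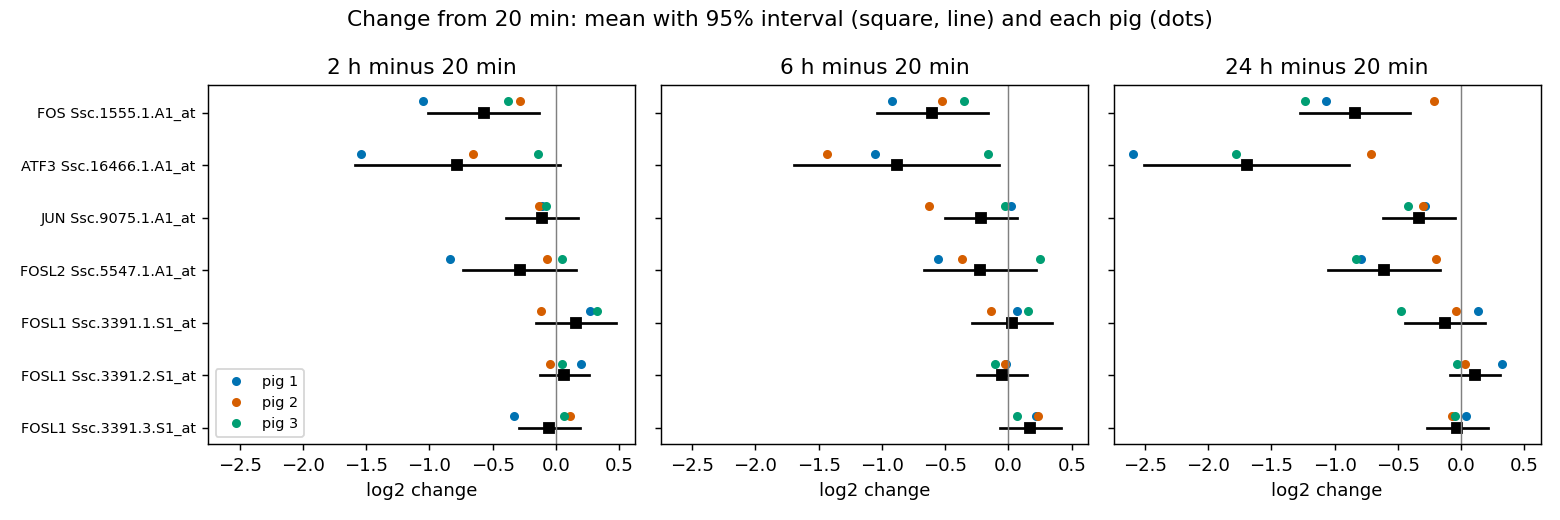
Log2 change from 20 min at 2 h, 6 h and 24 h (panels, x axis) of each AP-1 probe set (y axis); squares and lines are the mean and 95% interval of limma's fit, dots the 3 pigs. At 24 h the intervals of ATF3 (-2.50 to -0.88), FOS, FOSL2 and JUN lie below 0, and those of the FOSL1 sets include 0.

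At 2 h, 0 of 7 AP-1 probe sets passed (0% of all; smallest limma adjusted p over all probe sets 0.473), and 1 of 7, FOS, had an unadjusted p under 0.05 (7.95% of all). That count was 0 without the replicate block and without pig 1 or its 2 h or 20 min array, and 3 without pig 3. FOS was lower in all 3 pigs, with changes of -1.05, -0.29 and -0.38 and a mean of -0.57 ± 0.42 (95% interval -1.01 to -0.13; limma adjusted p = 0.592). ATF3 was also lower in all 3, with -1.54, -0.65 and -0.14 and a mean of -0.78 ± 0.71 (limma adjusted p = 0.635). For both genes the 2 h difference was largest in pig 1, the pig with the lowest level. JUN had -0.11 ± 0.03, with a value below 0 in each pig. FOSL2 had -0.29 ± 0.48, with -0.84 in pig 1 but -0.07 and 0.05 in the others. Being lower in all 3 pigs at 2 h was seen in 3 of 7 AP-1 probe sets and in 14.0% of all.

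At 6 h, 0 of 7 passed again (0% of all), and 2 of 7, FOS and ATF3, had an unadjusted p under 0.05 (8.83% of all). That count was 0 without the replicate block, and 0 again without pig 1, its 20 min array or the 6 h array of pig 2. Being lower in all 3 pigs was seen in 3 of 7 (FOS, ATF3 and the brightest FOSL1 set) and in 16.6% of all. The middle FOSL1 set went the other way in each pig. It stood at 5.16, 5.21 and 5.27 at 6 h in pigs 1, 2 and 3, against 4.95, 4.98 and 5.21 at 20 min. FOS was at -0.60 ± 0.29 relative to 20 min (95% interval -1.04 to -0.16; limma adjusted p = 0.502) and ATF3 at -0.88 ± 0.66 (95% interval -1.69 to -0.07; limma adjusted p = 0.543). The ATF3 change was largest in pig 2 at this time (-1.44), with -1.05 in pig 1 and -0.16 in pig 3. JUN had -0.63 in pig 2 and values of 0.02 and -0.03 in pigs 1 and 3. FOSL2 was lower in pigs 1 and 2 (-0.56 and -0.37) and higher in pig 3 (0.25). The courses differed in detail: most of the ATF3 difference of pig 3 came after 6 h (-1.62 for 24 h minus 6 h), while pig 2 was 0.73 higher at 24 h than at 6 h. The 2 h, 6 h and 24 h comparisons share the 20 min arrays, so they are not independent of each other.

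**Figure D4:**
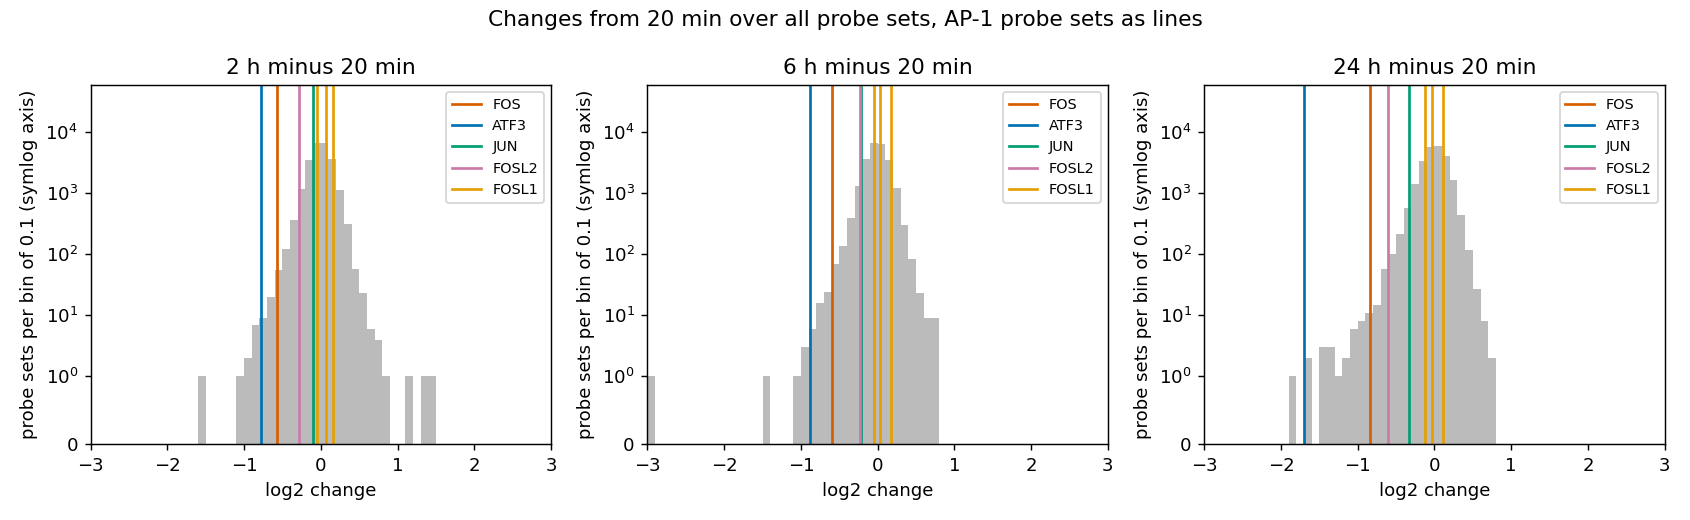
Histograms of the log2 change from 20 min at 2 h, 6 h and 24 h for all 23999 probe sets (grey bars, bins of 0.1 log2 units, symlog count axis), with the AP-1 probe sets as coloured lines. ATF3 stands at -0.78, -0.88 and -1.69 and FOS at -0.57, -0.60 and -0.84, in the left tail of each, and the FOSL1 lines lie near 0.

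Between 6 h and 2 h the mean differences were small, from -0.13 to 0.22 over the 7 probe sets; 0 passed (0% of all) and 0 had an unadjusted p under 0.05 (2.26% of all). Between 24 h and 6 h ATF3 had -0.81 ± 1.33, FOSL2 -0.38 ± 0.63, FOS -0.24 ± 0.61 and JUN -0.12 ± 0.39, each with pigs on both sides of 0. Here 0 of 7 passed (0% of all) and 1, ATF3, had an unadjusted p under 0.05 (8.08% of all), a count that was 0 without the replicate block, 0 without pig 1 or pig 3, and 4 without pig 2. The middle FOSL1 set was the 1 of 7 whose groups did not overlap, with 4.99, 4.90 and 5.15 at 24 h, against 5.16, 5.21 and 5.27 at 6 h. Of all probe sets, 3.99% were lower without overlap. The brightest FOSL1 set was instead higher at 24 h in each pig, with 6.41, 6.35 and 6.18, against 6.07, 6.29 and 6.10 at 6 h.

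Over the 4 times together, 0 of 7 passed limma's F test (0.00417% of all did), with adjusted p = 0.535 for ATF3 and 0.546 for FOS, and 2 of 7, the same genes, had an unadjusted p under 0.05 (8.22% of all). A straight line over the logarithm of time, an alternative added after seeing the data, gave ATF3 a slope of -0.26 ± 0.06 (SE) per doubling of time (limma adjusted p = 0.180). It gave FOS -0.13 ± 0.03 (adjusted p = 0.186), and 0 of 7 passed.

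RNA quality values and markers of other cells are given beside these changes. At 24 h the EF1A value, 3′ minus 5′, differed from that at 20 min by 0.38, -0.01 and 0.47 in pigs 1, 2 and 3, and pig 2 is also the pig with the smallest ATF3, FOS and FOSL2 changes. At 2 h the differences were 0.08, 0.49 and 0.26. Pig 1, with the smallest of these, then had the largest falls of FOS, ATF3 and FOSL2, and pig 2, with the largest, had the largest fall of JUN. At 6 h the EF1A differences were 0.06, -0.04 and 0.21. Pig 2, with the lowest, then had the largest falls of ATF3 and JUN, and pig 1 those of FOS and FOSL2. Pig 3, with the highest, had the smallest falls of ATF3 and FOS. At 24 h the same value differed by 0.06, 0.01 and 0.04 for GAPDH and by 0.09, -0.23 and -0.04 for ACTB. The part of RNA quality in the AP-1 changes was not tested.

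Of the 16 macrophage and leukocyte markers measured, out of 21 listed, 8 had a lower mean at 24 h (48.0% of all probe sets did), 0 passed and 7 had an unadjusted p under 0.05 (13.1% of all did), 6 of them lower. Some genes of resident macrophages had mean changes larger than that of FOS and smaller than that of ATF3. C1QC, a complement subunit, had -1.63 ± 1.15, with -0.97, -0.96 and -2.96 in the 3 pigs. The scavenger receptor gene CD163 had -1.29 ± 0.98 (pig 1 at -0.59), the complement receptor gene VSIG4 -1.19 ± 0.97 (pig 1 at -0.47) and C1QA -1.01 ± 0.80 (pig 1 at -0.52), each lower in all 3 pigs and largest in pig 3. In the whole list 6 markers were lower in all 3 pigs (16.7% of all probe sets were). CD14, PTPRC, CD3E and S100A8 went the other way and were higher in all 3 pigs, with CD14 at 0.22 ± 0.10. The summed level of all 16 macrophage and leukocyte markers lay between 9.93 and 10.41 at 24 h, against 10.36 to 11.09 at 20 min. The mean change of the 16 was -0.20, -0.10 and -0.80 in pigs 1, 2 and 3. Of 12 fibroblast and matrix markers, 9 had a lower mean and 0 passed; their summed level was 13.71 to 14.18 at 24 h, against 13.65 to 14.37 at 20 min. Their mean change was 0.07, -0.001 and -0.49 in these pigs. The part of these cells in the changes was not tested. The 11 endothelial, 7 smooth muscle and pericyte, 8 adipocyte and 3 erythroid markers had median changes of -0.02, -0.10, -0.05 and 0.14, and the 11 fibre markers of -0.04, with 0 passing in each list.

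**Figure D5:**
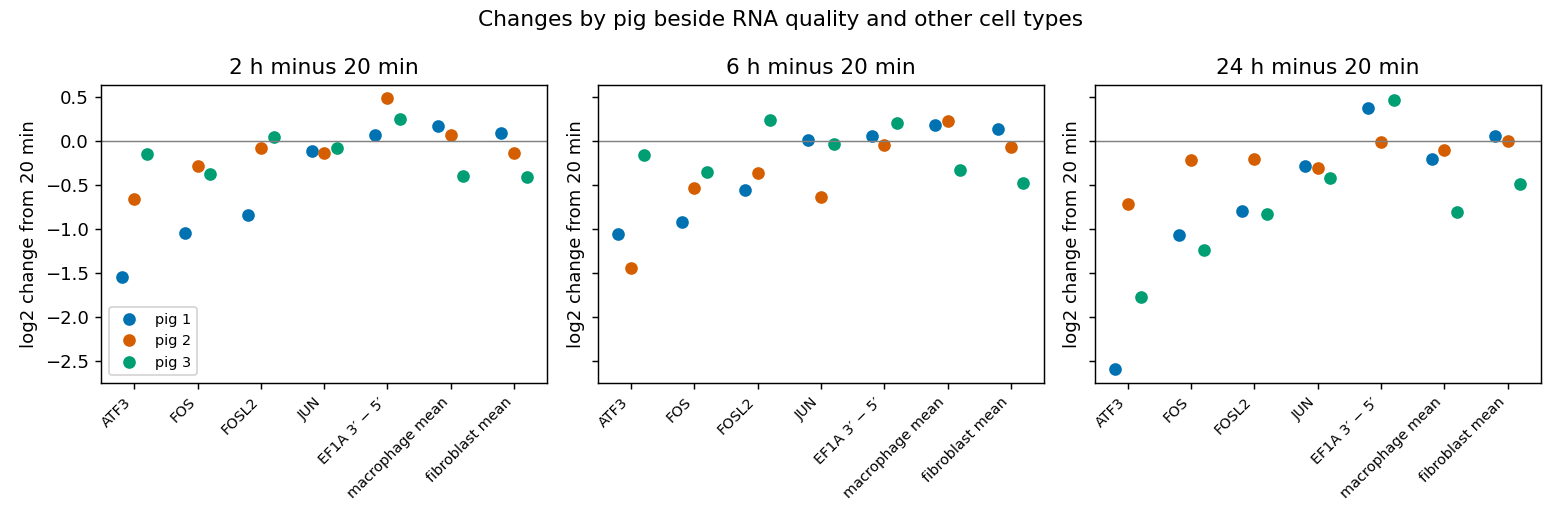
Log2 change from 20 min in each pig (dots) at 2 h, 6 h and 24 h (panels) for ATF3, FOS, FOSL2 and JUN, beside the change of the EF1A value (3′ minus 5′) and the mean changes of the macrophage and fibroblast marker lists. At 24 h ATF3 is at -2.59, -0.71 and -1.78 in pigs 1, 2 and 3, and the EF1A value at 0.38, -0.01 and 0.47.

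The genes around AP-1 gave 0 members past the test at 24 h in every list, though some had an unadjusted p under 0.05: 1 of 8 partners, 2 of 15 upstream genes, 3 of 6 feedback regulators, 7 of 23 targets, 2 of 13 decay factors and 8 of 20 other early regulators, where 13.1% of all probe sets did. Of the 8 dimer partners and relatives measured, 4 had a lower mean at 24 h, where 48.0% of all probe sets did, and the median change was -0.04. ATF4, which activates ATF3 under amino acid and reticulum stress, had a log2 change of -0.13 ± 0.004 (SD, n = 3 pigs). CEBPB, another leucine zipper factor of stress and inflammation, had -0.26 ± 0.24, and CREM, a factor of the cyclic AMP response, -0.16 ± 0.09. FOSB, JUNB and JUND were not analysed here.

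Upstream, 10 of 15 kinases and factors of the MAP kinase cascades had a lower mean at 24 h (48.0% of all probe sets did), with a median of -0.03. The brightest were MAP2K2, a kinase of the ERK branch, at -0.07 ± 0.08, the muscle p38 kinase MAPK12 at 0.08 ± 0.04 and MAPKAPK3, a kinase below p38, at 0.09 ± 0.23. Among the 6 phosphatases and feedback regulators, 3 had a lower mean (median -0.03). DUSP1 had -0.62 ± 0.63, with -0.35, -0.17 and -1.34 in pigs 1, 2 and 3. The stress genes GADD45A and GADD45G had -0.67 ± 0.20 and 0.39 ± 0.49.

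Downstream, 13 of 23 genes known as AP-1 targets had a lower mean at 24 h (48.0% of all probe sets did), with a median of -0.02. HBEGF, which encodes a growth factor of the EGF family, had -0.67 ± 0.37, lower in all 3 pigs, while VIM and VEGFA had -0.16 ± 0.45 and -0.01 ± 0.29. Of 13 mRNA decay factors 12 had a lower mean (48.0% of all did), with a median of -0.07. TOB1 was at -0.15 ± 0.07, HNRNPD at -0.04 ± 0.13 and BTG2 at -0.69 ± 0.56. Of the 20 other immediate early regulators 16 had a lower mean, again beside 48.0% of all probe sets, and 4 a higher one (median -0.25). The brightest were MCL1 at -0.14 ± 0.10, KLF10 at -0.10 ± 0.56 and BTG1 at -0.17 ± 0.24. MYC (-0.97 ± 0.75) and NR4A3 (-0.91 ± 0.99) had larger mean changes than FOS and were lower in all 3 pigs.

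The patterns of the members over the 12 arrays were compared after each pig's own mean had been taken off. FOS and FOSL2 correlated with r = 0.91, FOS and ATF3 with 0.90, FOSL2 and ATF3 with 0.89 and JUN and ATF3 with 0.83. JUN was less like FOS (0.70) and FOSL2 (0.72). The 3 FOSL1 sets correlated with each other at 0.28, -0.09 and -0.40, and the brightest of them correlated below 0 with FOS, FOSL2, JUN and ATF3 (-0.54 to -0.32). The arrays share pigs, portions and hybridisation, so these values are descriptions.

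Among all genes with a single symbol, those most like ATF3 were TMEM251 (r = 0.98), RND3 (0.97), TGIF1, HSPB8 (both 0.96) and LOC100153150 (0.96). Those most like FOS were RBM23 (0.92), FOSL2, BTG2, ALDH1L1 (each 0.91) and LOC102162486 (0.90). FOSL2 was closest to BTG2 (0.97), EIF4A1 (0.93), FOS, PEG10 and HSPB8 (each 0.91). JUN was closest to SRSF10 (0.96), KMT2E (0.94), HSF2 (0.93), RCC2 (0.92) and TIAM2 (0.91). The brightest FOSL1 set was closest to CTDSP2 (0.91), CYP19A3 (0.89), LAMP5 (0.87), ITGA8 and PLAGL1 (both 0.86). Of these genes RND3 had a mean log2 level of 8.36 at 24 h, against 9.03 at 20 min, and KMT2E 7.36 at 24 h, against 8.38 at 20 min.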

How the data were processed

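Biotin-labelled cRNA of 12 muscle portions was read on Affymetrix arrays of pig transcripts, per the labels. The authors deposited log2 values, 1 per probe set and array, and the submitters' processing notes name RMA and affy without versions. RMA makes the arrays' distributions alike, so a change shared by all transcripts would not show; signal over background was not analysed here. Leaving out 124 controls, 23999 probe sets were fitted in limma 3.58.1 (R 4.3.3), with terms for the 4 times and a fixed block for each pig, and Benjamini-Hochberg adjustment over all of them within each comparison.

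Times and pigs come from the sample titles, which give the same 3 animals at each time; arrays of 1 pig deviated together from their time means (r = 0.409 to 0.656 over 18 pairs). Gene symbols, some perhaps out of date, are those of the platform annotation, and all 5 members matched the RefSeq gene table by gene ID. Each member probe set is named; a listed gene is represented by its brightest probe set, and the 3 brightest of each list are named. For likeness, the 5 genes with the highest r to each member's brightest set are named. Other genes were chosen after their values were seen, as were the comparisons between pigs. Members and lists were chosen with earlier results of these data known. The fit was tested on simulated data. Alternatives changed the block, normalisation, filter on dim probe sets, prior and array weights, or left out arrays and pigs.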

Additional observations from a re-analysis of the deposited data

How the results depend on the processing

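The count of AP-1 probe sets past the adjusted threshold was 0 in each comparison and alternative, except at 24 h minus 20 min without the 24 h array of pig 2, where it was 1 (ATF3); with arrays or pigs left out it ran from 0 to 1. The count of 4 at an unadjusted p under 0.05 at 24 h was 0 without the replicate block and 0 with the replicate block as a random effect, and ran from 2 to 4 with arrays or pigs left out. At 2 h and 6 h minus 20 min and 24 h minus 6 h, the unadjusted counts were 1, 2 and 1. All were 0 without the replicate block and with it as a random effect. With arrays or pigs left out they ran from 0 to 3, 0 to 3 and 0 to 4. The block changed no adjusted count. The 24 h minus 6 h count was also 0 without the dimmest 40% of probe sets, centred on the brightest ones and with the other prior. With array weights it was 2. The 6 h minus 20 min count was 1 with array weights and with the other prior. The count of 0 at 6 h minus 2 h became 1 with array weights and with cyclic loess normalisation. The differences between pigs for FOS, ATF3, JUN and FOSL2 kept their sign under other scaling and with each time left out, FOS from -4.63 to -4.34 for pig 1 minus pig 2. Signs turned in 31 recomputed changes, none of which passed, and the cause was not tested. With array weights, the dimmest FOSL1 set had -0.0186 at 6 h minus 20 min, and FOS 0.0290 and ATF3 0.0351 at 6 h minus 2 h. Centred on the brightest probe sets, the middle FOSL1 set had 0.00329 at 24 h minus 20 min. With arrays or pigs left out, the middle FOSL1 set ran from -0.133 to 0.106 at 2 h minus 20 min and from -0.102 to 0.0305 at 24 h minus 20 min. The dimmest ran from -0.0652 to 0.110 at 6 h and from -0.258 to 0.0932 at 24 h, both minus 20 min, and from -0.280 to 0.0798 at 24 h minus 6 h. The brightest ran from -0.000588 to 0.178 at 24 h minus 20 min. At 6 h minus 2 h, FOS ran from -0.189 to 0.0909, FOSL2 from -0.157 to 0.237, JUN from -0.226 to 0.103 and ATF3 from -0.402 to 0.356. At 24 h minus 6 h, FOS ran from -0.515 to 0.0853 and JUN from -0.346 to 0.0161. The 3 pigs limit the precision, and 2 of the FOSL1 sets are among the dimmest 40% of probe sets.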
